A study of Mus musculus with 6 samples.

Results

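Solute carriers are membrane proteins that move ions, amino acids, nucleosides and other small solutes across the cell surface and the membranes of organelles. The data described here are the RNA levels of 10 of them in the right ventricle (RV) of newborn mice, namely 3 ion and bicarbonate exchangers (Slc9a3, Slc4a8 and Slc26a6) and 7 carriers of organic solutes (Slc6a6, Slc36a2, Slc7a4, Slc22a4, Slc16a12, Slc29a2 and Slc2a13). They were chosen by gene symbol, and all 10 were found among the 617 genes listed in the table used here. Banding of the pulmonary artery (PAB) ties a thread around that vessel and leaves it constricted, which loads the RV with pressure, and the sham operation followed the same steps without the band, so both groups had their chest opened. C57/BL6J mice of WT genotype underwent either operation on postnatal day 1, and RV tissue was taken on postnatal day 7, with 3 sham and 3 PAB libraries. The sources used here give pups of either sex and do not say whether a library held the RNA of 1 pup or of several, so a p-value measures only the spread between these libraries.

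Values are normalized reads, that is, reads of a gene after division by a factor that evens out library size, and each library's values are whole multiples of 1 step, which was taken as 1 read. These factors lay between 0.939 and 1.07, and the total number of reads per library is unknown. The group means of every listed gene differed at least 2.0-fold, so the table had been selected on the same contrast that is described here. Its rows stand in order of rising p-value and the last row breaks off, so the table used here may be a part of a longer one, and ranks, shares and counts of listed genes hold for these 617 genes only. PAB and sham were compared with limma on log2(value + 1) over all 617 listed genes. By that test 10 of the 10 carriers differed at an adjusted p-value under 0.05, 5 higher and 5 lower in PAB, against a background of 100% of the listed genes, 47% higher and 53% lower. In 10 of 10 the 3 PAB values did not overlap the 3 sham values, against 97.1% of all listed genes, 44.6% higher and 52.5% lower. Both shares follow from the selection and are no result about the carriers. The p-values below only set each difference beside a spread between libraries. That spread is drawn by limma partly from the gene itself and partly from all listed genes. Scaling the libraries instead by their median ratio across listed genes raised PAB relative to sham by 0.594 (log2). Such scaling takes the median listed gene as unchanged, while every listed gene was selected as different. Calls gained or lost under that scaling therefore do not decide whether a difference holds. With that scaling 7 of the 10 carriers passed (77.5% of listed genes), 5 higher and 2 lower (30.5% of listed genes were lower), with no change of direction. The split of all calls then moved from 47.0% to 60.7% higher in PAB. Without PAB replicate 1, 10 of 10 carriers passed (97.6% of listed genes).

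A heart muscle cell keeps its pH by exporting acid through sodium/hydrogen exchangers and by exchanging bicarbonate for chloride. Members of the SLC9, SLC4 and SLC26 families carry out these exchanges, and their balance sets both intracellular pH and the load of sodium and chloride. Among organic solutes, taurine is abundant in heart muscle as an osmolyte, creatine stores high-energy phosphate, and nucleoside carriers take up adenosine and the other nucleosides. Myo-inositol is an osmolyte and the precursor of inositol phospholipids. All 10 genes are protein-coding, with 8 (Slc16a12) to 27 (Slc4a8) exons after their transcripts are merged.

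The 3 exchangers moved in opposite directions, with Slc9a3 and Slc4a8 higher and Slc26a6 lower in PAB. Slc9a3 encodes the sodium/hydrogen exchanger NHE3, which is best known from the apical membrane of kidney and gut epithelium. It lies on the plus strand of chromosome 13 from 74121457 to 74169442 (GRCm38, the assembly also called mm10). Sham replicates 1, 2 and 3 had 25.5, 15.0 and 31.5 normalized reads, and PAB replicates 1, 2 and 3 had 156.6, 82.3 and 77.5. The lowest PAB library was 2.46-fold above the highest sham library, and PAB replicate 1 stood above the other PAB libraries. Means of 3 libraries with their SD were 24.0 ± 8.36 in sham and 105.5 ± 44.3 in PAB, and the log2 fold change was 2.08 (standard error 0.40, limma adjusted p = 0.00148). With all libraries Slc9a3 had the largest log2 fold change of the 5 increased carriers, ranked 71 of 290 among all increased genes. Slc22a4 had a larger one without sham replicate 2 (2.07 against 1.78) and without PAB replicate 3 (2.36 against 2.26).

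Slc4a8 encodes a sodium-driven chloride/bicarbonate exchanger that takes up bicarbonate and is best known from neurons. Its locus is on the plus strand of chromosome 15, from 100761747 to 100823968. Its values were 36.9, 17.8 and 23.1 normalized reads in sham replicates 1, 2 and 3, and 107.6, 51.6 and 45.7 in the PAB replicates. PAB replicate 1 was again the highest, and the lowest PAB library exceeded the highest sham library by only 1.24-fold. The log2 fold change was 1.32 (standard error 0.43, limma adjusted p = 0.0117). Without sham replicate 2 it was 1.09 and no longer passed (limma adjusted p = 0.0513, the largest over 12 alternatives, with a smallest of 0.00410).

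Slc26a6 encodes an exchanger of chloride for bicarbonate, oxalate and formate that is expressed in heart muscle. The table places it on the plus strand of chromosome 9 from 108853283 to 108913049. Normalized reads were 310.2, 259.0 and 216.0 in sham replicates 1, 2 and 3, and 82.0, 109.1 and 135.1 in the PAB replicates. PAB replicate 1 was the lowest here, and the lowest sham library stood 1.6-fold above the highest PAB library. Means of 3 libraries with their SD were 261.8 ± 47.1 in sham and 108.7 ± 26.6 in PAB, and the log2 fold change was -1.27 (standard error 0.28, limma adjusted p = 0.00229). Under median-ratio scaling it was -0.68 and still passed (limma adjusted p = 0.0343, the largest over 12 alternatives, with a smallest of 0.000455).

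The relation between these exchangers can be read within a library, where the size factor cancels. Per kilobase of gene length, the level of Slc9a3 was 0.0809, 0.0568 and 0.143 times that of Slc26a6 in sham replicates 1, 2 and 3, and 1.88, 0.742 and 0.564 times in PAB replicates 1, 2 and 3. In PAB replicate 1 the level of Slc9a3 per kilobase was thus above that of Slc26a6, and in the other 5 libraries it was below. For Slc4a8 over Slc26a6 the ratio of levels per kilobase lay between 0.0285 and 0.0494 in sham and between 0.141 and 0.545 in PAB. The groups did not overlap for either ratio, which the opposite directions of the genes already fix. For Slc9a3 over Slc4a8, both of which were higher in PAB, the ratio of levels per kilobase was 1.64, 1.99 and 3.23 in sham and 3.44, 3.78 and 4.01 in PAB, so these groups lay side by side without overlap.

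**Figure D1:**
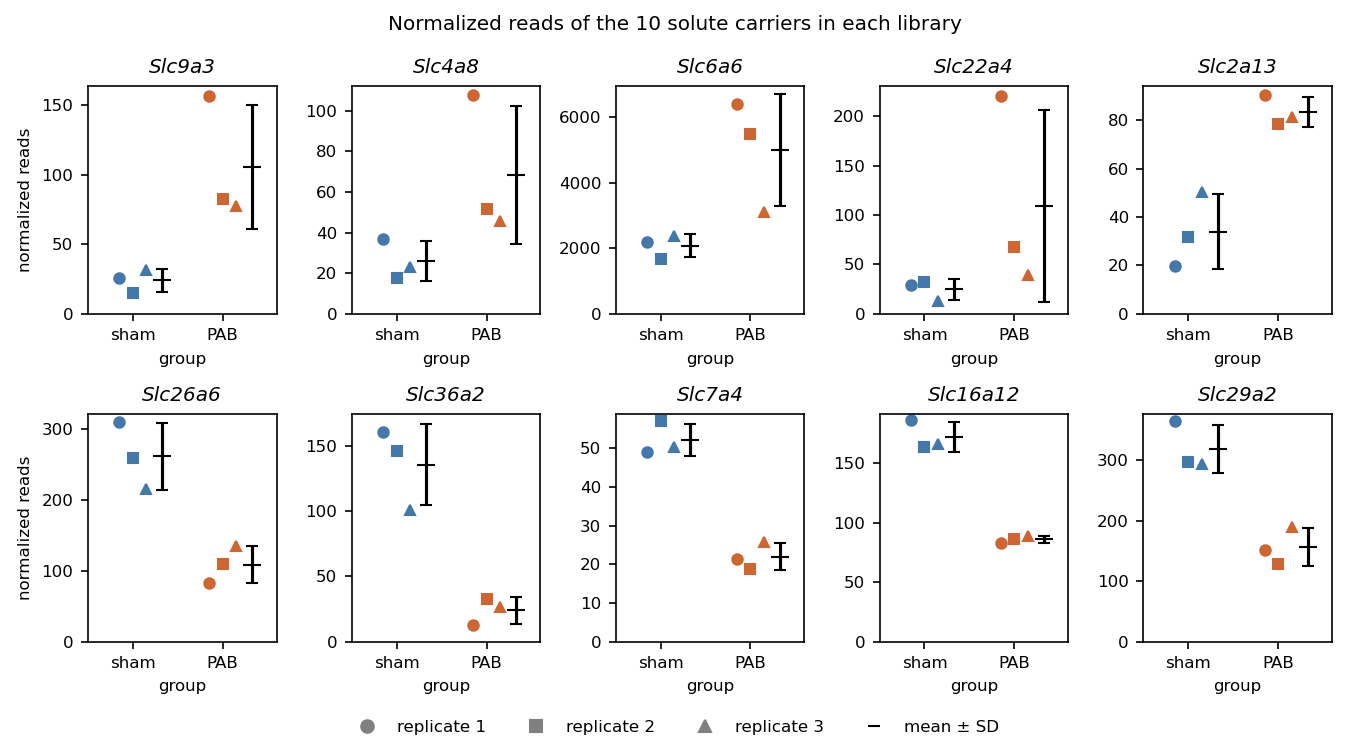
Normalized reads of the 10 carriers (y axes, each from 0) in the 3 sham (blue) and 3 PAB (orange) libraries (x axes), with marker shapes for the replicate number and black bars for mean ± SD. The upper row holds the 5 carriers that were higher in PAB and the lower row the 5 that were lower, and in each panel the groups do not overlap.

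The sequence around the transcription start was taken from a set of RefSeq promoters (GRCm38.p6). The set used here held 7 of the 10 carriers, with 250 bases before the start site and 50 after it. They are shown for 2 exchangers that moved in opposite directions and for the 2 organic solute carriers whose sequence holds CACGTG, as that of Slc9a3 does. On both strands 5 motifs were searched, namely ACGTG (the core of a hypoxia response element), CACGTG (an E box, which contains the first on both strands), GGGCGG (a GC box), CCAAT and TGANTCA (an AP-1 site). Capitals mark every match, and a motif on the other strand reads as its reverse complement, for example ATTGG for CCAAT. Slc9a3 is at chr13:74121163-74121462 (plus strand), Slc26a6 at chr9:108853793-108854092 (plus strand), Slc22a4 at chr11:54028055-54028354 (minus strand) and Slc16a12 at chr19:34747279-34747578 (minus strand).
Slc9a3: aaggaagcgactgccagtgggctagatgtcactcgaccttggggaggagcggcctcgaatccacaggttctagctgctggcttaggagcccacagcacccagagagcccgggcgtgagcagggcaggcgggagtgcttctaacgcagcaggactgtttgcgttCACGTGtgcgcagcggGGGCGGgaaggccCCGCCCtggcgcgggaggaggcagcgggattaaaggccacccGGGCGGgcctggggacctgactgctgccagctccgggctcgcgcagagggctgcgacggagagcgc
Slc26a6: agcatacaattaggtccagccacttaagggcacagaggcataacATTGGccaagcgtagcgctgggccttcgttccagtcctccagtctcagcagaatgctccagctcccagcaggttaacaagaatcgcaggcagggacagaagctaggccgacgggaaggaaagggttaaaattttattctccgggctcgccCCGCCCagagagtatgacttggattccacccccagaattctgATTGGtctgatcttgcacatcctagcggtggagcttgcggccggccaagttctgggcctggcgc
Slc22a4: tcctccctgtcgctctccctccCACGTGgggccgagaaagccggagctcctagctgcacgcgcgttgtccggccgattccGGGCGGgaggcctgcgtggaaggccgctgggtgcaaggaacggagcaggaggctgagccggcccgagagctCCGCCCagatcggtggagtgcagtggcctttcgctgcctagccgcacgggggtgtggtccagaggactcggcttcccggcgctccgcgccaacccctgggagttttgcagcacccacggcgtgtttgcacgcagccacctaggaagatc
Slc16a12: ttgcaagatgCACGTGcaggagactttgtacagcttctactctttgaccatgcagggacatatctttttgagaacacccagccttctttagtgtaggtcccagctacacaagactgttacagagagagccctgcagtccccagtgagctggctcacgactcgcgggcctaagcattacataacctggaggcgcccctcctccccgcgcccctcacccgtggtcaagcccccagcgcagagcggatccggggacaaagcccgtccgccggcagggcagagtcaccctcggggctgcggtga
CACGTG was present in 3 of the 7 sequences, those of Slc9a3, Slc22a4 and Slc16a12, and in 7.15% of 32851 promoters of the same length. It began at position -87, -228 and -240 relative to the start site (position 0), respectively. ACGTG was found in the same 3 sequences only and within those E boxes, against 19.6% of all promoters. GGGCGG was in 5 of the 7 (35.7% of all), CCAAT in 2, Slc26a6 and Slc4a8 (37.4% of all), and TGANTCA in 0 (7.81% of all). Of the 3 genes with CACGTG, Slc9a3 and Slc22a4 were higher in PAB and Slc16a12 was lower, so the match did not go with 1 direction. The 7 sequences held 56.0% (Slc26a6) to 69.0% (Slc22a4) G and C, against a median of 52.7% over all promoters. The shares of matches were not adjusted for this. Such matches describe the letters only and do not show that a factor binds there.

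Among the carriers of organic solutes, Slc6a6 was by far the most abundant. Slc6a6 encodes the sodium- and chloride-dependent taurine transporter, which maintains the taurine pool of heart muscle. The gene is on the plus strand of chromosome 6 (91684053 to 91759066), where 117 of its exonic bases (1.38%) overlap Gm44981 on the opposite strand. Its values were 2190, 1686 and 2361 normalized reads in sham replicates 1, 2 and 3, and 6405, 5489 and 3102 in PAB replicates 1, 2 and 3. PAB replicate 3 stood closest to sham, 1.31-fold above the highest sham library. Means of 3 libraries with their SD were 2079 ± 351 in sham and 4999 ± 1705 in PAB, and the log2 fold change was 1.21 (standard error 0.30, limma adjusted p = 0.00399). By its mean over the 6 libraries Slc6a6 was above 96.8% of the listed genes, while its log2 fold change ranked 204 of 290 among the increases. Within the summed level per kilobase of the 10 carriers, Slc6a6 made up 43.7%, 41.0% and 51.6% in sham replicates 1, 2 and 3 and 75.9%, 79.98% and 67.0% in PAB replicates 1, 2 and 3.

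Slc22a4 encodes OCTN1, a carrier of ergothioneine and organic cations from the same family as the carnitine transporter. It lies on the minus strand of chromosome 11 from 53983123 to 54028090. Sham replicates 1, 2 and 3 had 29.3, 32.7 and 12.6 normalized reads, and PAB replicates 1, 2 and 3 had 220.5, 67.4 and 39.7. PAB replicate 1 was 5.55-fold above PAB replicate 3, the widest range within a group among the 10 carriers, and replicate 3 was only 1.21-fold above the highest sham library. The log2 fold change was 1.82 (standard error 0.60, limma adjusted p = 0.0120). Without PAB replicate 1 it was 1.14 (limma adjusted p = 0.0328), and without sham replicate 3 it was 1.41 and did not pass (limma adjusted p = 0.0544, the largest over 12 alternatives, with a smallest of 0.00174). A run of 172 bases in the Slc22a4 transcripts matches Gm12220 with an identity of at least 95%, so the split of reads between these genes is uncertain.

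Slc2a13 encodes a proton-coupled carrier of myo-inositol, which belongs by sequence to the family of glucose transporters. Its gene is on the minus strand of chromosome 15 from 91267696 to 91573261. It had 19.9, 31.8 and 50.3 normalized reads in sham replicates 1, 2 and 3, and 90.5, 78.3 and 81.5 in the PAB replicates. Here the PAB libraries were close together, with a coefficient of variation of 7.58%, and the sham libraries were spread, with 45.2%. The log2 fold change was 1.36 (standard error 0.37, limma adjusted p = 0.00558), and with each library left out in turn it lay between 1.04 and 1.69 and passed.

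Slc36a2 had the largest decrease of the carriers. It encodes PAT2, a symporter of protons with glycine, alanine and proline, and lies on the minus strand of chromosome 11 from 55158470 to 55185077. Normalized reads were 160.8, 145.9 and 100.7 in sham replicates 1, 2 and 3, and 12.8, 32.7 and 26.8 in PAB replicates 1, 2 and 3. Even the lowest sham library was 3.08-fold above the highest PAB library, the widest gap between the groups among the 10 carriers, and PAB replicate 1 rested on 12 steps, taken as 12 reads. Means of 3 libraries with their SD were 135.8 ± 31.3 in sham and 24.1 ± 10.2 in PAB, a 5.63-fold lower mean and a log2 fold change of -2.52 (standard error 0.39, limma adjusted p = 0.000669). This ranked 38 of 327 among the decreases and stayed at -1.94 under median-ratio scaling.

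Slc7a4 is related by sequence to the carriers of cationic amino acids, although its own transport activity is not well established. The locus is on the minus strand of chromosome 16 from 17572018 to 17583214. Its values were 49.2, 57.0 and 50.3 normalized reads in sham replicates 1, 2 and 3, and 21.3, 18.8 and 25.8 in the PAB replicates. The values within each group were close together, and the lowest sham library was 1.90-fold above the highest PAB library. The log2 fold change was -1.22 (standard error 0.33, limma adjusted p = 0.00572). Of its exonic bases, 554 (13.3%) overlap those of P2rx6 on the opposite strand, and whether reads were counted by strand is not given in the sources used here, so within this overlap reads of the genes may not be told apart. P2rx6, which encodes a subunit of ATP-gated channels, had 25.5, 49.6 and 18.9 normalized reads in sham and 5.33, 4.96 and 10.9 in PAB. Its log2 fold change was -1.96, in the direction of Slc7a4, and its part in the values of Slc7a4 was not tested.

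Slc29a2 encodes ENT2, an equilibrative carrier of nucleosides and nucleobases. The table places it on the plus strand of chromosome 19 from 5024006 to 5031971. It had 365.1, 296.5 and 294.7 normalized reads in sham replicates 1, 2 and 3, and 152.3, 127.9 and 189.7 in PAB replicates 1, 2 and 3. All sham libraries were above all PAB libraries, the lowest sham library by 1.55-fold over PAB replicate 3. Means of 3 libraries with their SD were 318.7 ± 40.1 in sham and 156.7 ± 31.1 in PAB, and the log2 fold change was -1.03 (standard error 0.25, limma adjusted p = 0.00367).

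Slc16a12 encodes MCT12, a member of the monocarboxylate transporter family that carries creatine. Its position is on the minus strand of chromosome 19, from 34668403 to 34747289. Values were 186.3, 163.7 and 165.7 normalized reads in sham replicates 1, 2 and 3, and 83.1, 86.3 and 88.4 in the PAB replicates. This was the carrier with the closest agreement of replicates, with a coefficient of variation of 3.13% in PAB and 7.29% in sham. The log2 fold change was -0.99 (standard error 0.24, limma adjusted p = 0.00379) and lay between -1.02 and -0.93 with each library left out in turn. It ranked 325 of 327 among the decreases, so Slc16a12 was at the edge of the listing.

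Under median-ratio scaling the log2 fold changes of Slc7a4, Slc29a2 and Slc16a12 were -0.64, -0.44 and -0.40 and no longer passed. The limma adjusted p-values were then 0.0832, 0.105 and 0.136, the largest over the 12 alternatives of each gene, and the smallest were 0.00383, 0.000698 and 0.00257. These lost calls do not decide whether the decreases hold, because the scaling takes the median listed gene as unchanged.

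**Figure D2:**
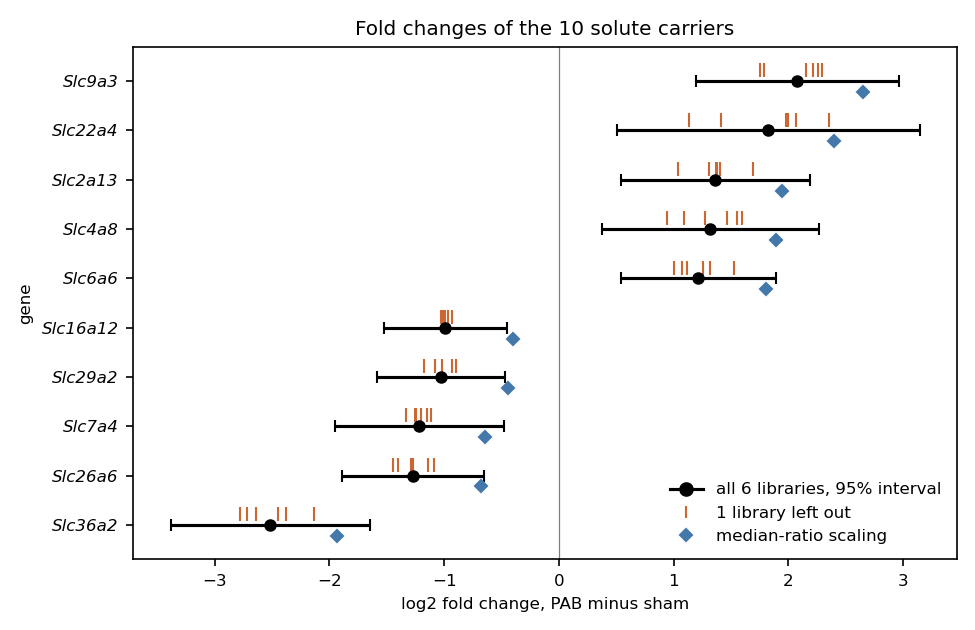
Log2 fold change of each carrier (y axis) between PAB and sham (x axis) with its 95% interval from limma (black), the values with 1 library left out (orange ticks) and the value under median-ratio scaling (blue diamonds). No value crosses 0, and the 3 blue diamonds nearest to it are those of Slc16a12, Slc29a2 and Slc7a4.

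The spread between libraries differed among the carriers. For each gene it can be set against the SD that counting of reads alone would give at that level. For Slc16a12 in PAB the SD was 2.69 normalized reads against a counting SD of 9.34, and for Slc2a13 in PAB it was 6.33 against 9.22. An SD over 3 libraries is itself imprecise, and the counting SD holds only if a step is 1 read, which was not shown. For Slc7a4 the SD was 0.595 times the counting SD in sham and 0.750 times in PAB. At the other end, the SD of Slc6a6 in PAB was 23.8 times its counting SD, that of Slc22a4 9.13 times and that of Slc9a3 4.26 times. Over the 10 carriers the median coefficient of variation was 20.5% in sham and 29.3% in PAB, and over all listed genes it was 17.8% and 34.3%.

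In PAB the same library was highest in each of the 5 increased carriers. PAB replicate 1 had the highest value in 5 of 5, and 4 of these (Slc9a3, Slc4a8, Slc6a6 and Slc22a4) had the order replicate 1, 2, 3. Among all 290 increased genes, PAB replicate 1 was highest in 86.9% and the full order was the same in 68.6%, so the carriers did as most listed genes did. Of the 5 decreased carriers, PAB replicate 1 was lowest in 3 (Slc26a6, Slc36a2 and Slc16a12), against 57.8% of the 327 decreased genes. PAB replicate 2 was lowest in the other two, Slc29a2 and Slc7a4.

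Levels of different genes were compared per kilobase of gene length. In sham the order of mean levels per kilobase was Slc6a6 (245.8 ± 41.5), Slc29a2 (128.9 ± 16.2), Slc26a6 (48.4 ± 8.71), Slc16a12 (42.4 ± 3.09), Slc36a2 (41.7 ± 9.62), Slc7a4 (12.6 ± 1.02), Slc22a4 (9.74 ± 4.22), Slc9a3 (4.36 ± 1.52), Slc2a13 (4.06 ± 1.84) and Slc4a8 (1.99 ± 0.758), each as normalized reads per kilobase with its SD over 3 libraries. Slc6a6 and Slc29a2 stood apart from their neighbours in this order, and so did the step from Slc36a2 to Slc7a4. The library values of Slc26a6, Slc16a12 and Slc36a2 overlapped, as did those of each neighbouring pair from Slc7a4 down to Slc4a8. All 5 carriers that were lower in PAB lay above 4 of the 5 that were higher, Slc6a6 being the exception.

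In PAB the order of mean levels per kilobase was Slc6a6 (591.1 ± 202), Slc29a2 (63.4 ± 12.6), Slc22a4 (42.8 ± 38.1), Slc16a12 (21.2 ± 0.664), Slc26a6 (20.1 ± 4.91), Slc9a3 (19.2 ± 8.05), Slc2a13 (9.97 ± 0.756), Slc36a2 (7.41 ± 3.15), Slc7a4 (5.30 ± 0.853) and Slc4a8 (5.24 ± 2.62). Only Slc6a6 from Slc29a2, and Slc9a3 from Slc2a13, were neighbours without overlap. By the means of all libraries, Slc36a2 was at rank 5 in sham and rank 8 in PAB, and Slc22a4 at rank 7 in sham and rank 3 in PAB. That of Slc22a4 in PAB rested on replicate 1, without which its mean level per kilobase was 20.99 and its rank 5. The ratio of the level per kilobase of Slc6a6 to that of Slc36a2 within a library was 5.24, 4.45 and 9.02 in sham replicates 1, 2 and 3 and 192.9, 64.6 and 44.5 in PAB replicates 1, 2 and 3. For Slc2a13 over Slc7a4 the same ratio was below 1 in each sham library, at most 0.496, and above 1 in each PAB library, at least 1.57.

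**Figure D3:**
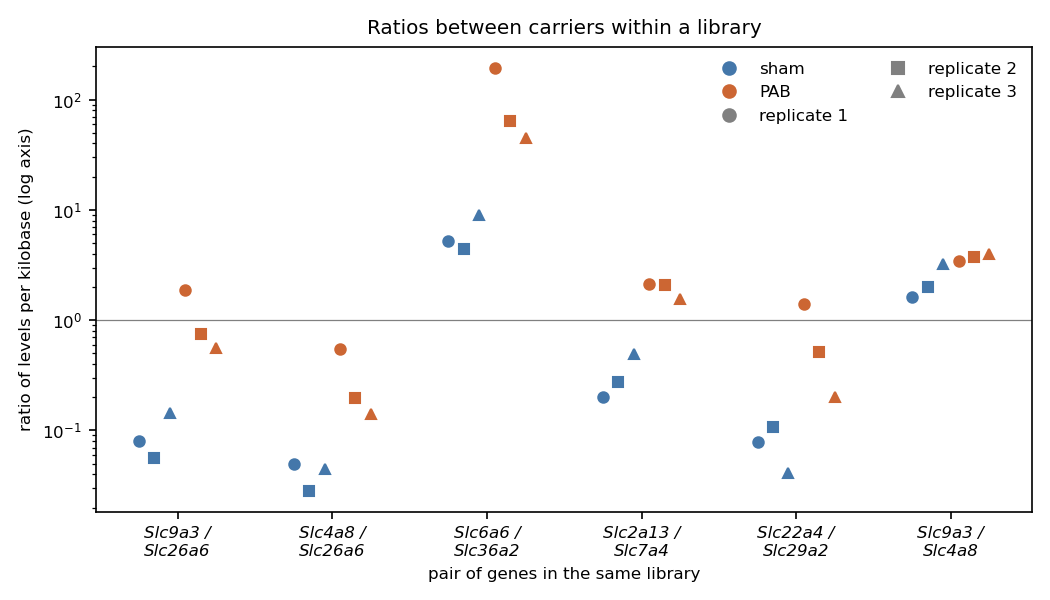
Ratio of the levels per kilobase of 2 carriers in the same library (y axis, log scale) for 6 pairs (x axis), with sham in blue, PAB in orange and marker shapes for the replicate number. The ratio of Slc9a3 to Slc26a6 lies between 0.0568 and 0.143 in sham and between 0.564 and 1.88 in PAB, and that of Slc9a3 to Slc4a8 differs least between the groups.

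**Figure D4:**
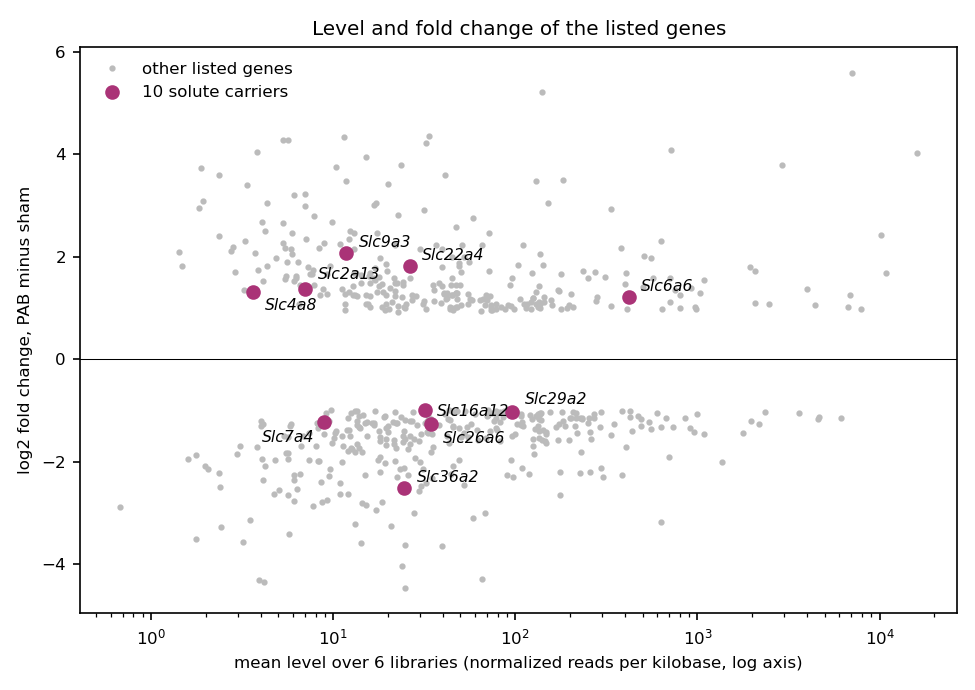
Log2 fold change between PAB and sham (y axis) against the mean level over 6 libraries in normalized reads per kilobase (x axis, log scale) for the listed genes with a gene length (grey) and the 10 carriers (purple). The empty band around 0 is the selection of the listed genes, and most carriers lie near its edges, with Slc36a2 and Slc9a3 farthest from it.

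In size the changes of the carriers were moderate for this table. The median log2 fold change was 1.36 over the 5 increased carriers and 1.45 over all increased genes, and it was -1.22 over the 5 decreased carriers and -1.45 over all decreased genes. Solute carriers with a symbol Slc or Slco number 385 among the protein-coding genes of GENCODE M21, and 17 of these (4.42%) were listed, 8 higher and 9 lower in PAB, a share that depends on where the table ends. The others were not analysed here. The families of the members hold 132 protein-coding genes, of which 13 were listed, the 10 carriers and Slc2a1, Slc16a3 and Slc22a17. These families were picked through the 10 carriers, all of them listed, so this count is not comparable with the share above.

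These 3 relatives stand beside their family members as follows. Slc2a1, the main basal glucose transporter, had 243.1, 226.3 and 271.6 normalized reads in sham and 1005, 553.4 and 329.8 in PAB, a log2 fold change of 1.20, and so rose as Slc2a13 did. Slc16a3, the lactate exporter MCT4, had 174.0, 162.7 and 205.6 in sham and 1749, 750.8 and 461.9 in PAB, a log2 fold change of 2.23, opposite to Slc16a12. The ratio of the level per kilobase of Slc16a3 to that of Slc16a12 was below 1 in each sham library (0.711 to 0.945) and between 3.98 and 16.0 in PAB. Slc22a17, a receptor for the iron-binding protein lipocalin, had 304.5, 258.1 and 256.9 in sham and 141.6, 129.9 and 132.1 in PAB, a log2 fold change of -1.01, opposite to Slc22a4.

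Other genes that handle the same solutes were counted from fixed lists. Among the 30 other genes of pH and bicarbonate handling, Car9, a carbonic anhydrase of the cell surface, was listed and had 13.2, 2.81 and 7.34 normalized reads in sham and 123.5, 68.4 and 62.6 in PAB, a log2 fold change of 3.42. Of 18 genes of nucleoside handling, 1 was listed, Uck2, a uridine-cytidine kinase, which rose in PAB, with means and SD of 785 ± 71.7 in sham and 2592 ± 1354 in PAB, a log2 fold change of 1.61. Car9 and Uck2 passed in limma with adjusted p-values of at most 0.00183. None of 15 genes of taurine and osmolyte handling, 7 of creatine, 10 of carnitine and ergothioneine or 24 of amino acid transport was listed. They were not analysed here, and since the table may be a part of a longer one, their absence says nothing about their levels.

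For each carrier the listed genes with the most similar pattern over the 6 libraries were found by the Pearson correlation of log2(value + 1). These were Strn and Slco2a1 for Slc9a3, Pla2g4e for Slc26a6, Xdh and Gcnt4 for Slc4a8, Ackr2 and Flt1 for Slc6a6, Prr33 and Podxl2 for Slc36a2, and Dbh and C1qa for Slc7a4. For Slc22a4 they were Map6 and Cysltr1, for Slc16a12 Slc27a1 and Gm10435, for Slc29a2 Mien1 and Cd1d1, and for Slc2a13 Ap1s3 and Gm9938. The correlations of these genes lay between 0.967 (Gm9938) and 0.998 (Slc27a1). They rest on 6 libraries that share the contrast between the groups, so a high value is common in this table. For Slc16a12, 124 listed genes exceeded 0.95, whereas for Slc2a13 and Slc22a4 4 and 7 did.

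In RNA from whole tissue, fewer cells of a type and less RNA per cell cannot be told apart. None of 8 markers of heart muscle cells was listed, so the tissue could not be checked by them here. Among markers of other cells, 1 of 9 for fibroblasts was listed, Dpt, with 4649 to 4759 normalized reads in sham and 1487 to 2511 in PAB. For macrophages it was 1 of 5, C1qa, with 642.9 to 700.4 in sham and 270.7 to 346.7 in PAB. For endothelial cells it was 1 of 6, Vwf, with 1283 to 1488 in sham and 1637 to 4791 in PAB. Of 10 adipocyte markers 1 was listed, Dio2, with 133.2 to 134.7 in sham and 356.6 to 568.7 in PAB. Of 4 atrial and of 4 skeletal muscle markers 1 each was listed, Nppa and Acta1, with at most 238.3 and 2978 in sham and at least 4995 and 34096 in PAB. The paper uses Nppa as a marker of hypertrophy and also reports it higher after PAB in purified rat cardiomyocytes. Neither rise is taken here as a sign of atrial or skeletal muscle cells. No marker of smooth muscle, lymphoid, erythroid, mesothelial, Schwann or lung cells was listed. Since the table may be a part of a longer one, this does not show that these cells were absent. The part of these markers' cells in the values of the carriers was not tested.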

How the data were processed

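RNA of RV tissue was sequenced for 3 sham and 3 PAB libraries, which were grouped by their sample titles. The extraction protocol mentions a rat, while all other labels and the gene IDs are of mouse. The paper's methods give FPKM from featureCounts and a DESeq2 comparison. The deposited library values are instead a signal, taken here as read counts per gene that the authors divided by a size factor, since each of the 165 to 215 values per library under 50 reads is a whole number of steps (tolerance 0.1). The submitters' processing notes name HISAT2 2.0.5, StringTie 1.3.3b, featureCounts 1.5.0-p3, GATK 3.7 and mm10. The log2 fold changes, p-values and group means that the authors deposited were not used. The table's rows follow the authors' p-values and the last row breaks off before the gene symbol, which was taken from the gene ID, so the table may be a part of a longer one.

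A linear model with a trended variance prior (limma 3.58.1, R 4.3.3, two-sided) was fitted to log2(value + 1) without a replicate block. Genes needed a mean of 0.1 or more, and the Benjamini-Hochberg adjustment covered 617 genes with a threshold of 0.05. The fit was tried on simulated data in which most genes were unchanged. All listed genes were selected as different, so that trial does not show how the fit behaves here. A count test was not run. Coordinates are those of the table, and for 9 of the 10 carriers GENCODE M21 (GRCm38) has the same ones. Shared runs of 100 bases or more were sought with blastn 2.17.0. Python 3.11.15, numpy 2.4.6, pandas 2.3.3 and matplotlib 3.10.9 served for the rest. The members, lists and tests were chosen with earlier results of these data known. Genes named are the members, listed relatives of their families, listed genes of the lists and markers, and the 2 best correlated genes of each member, while P2rx6 was added after its overlap was seen. Some genes that this rule takes are not reported here.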

Additional observations from a re-analysis of the deposited data

How the results depend on the processing

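The direction of all 10 carriers was kept under each of 12 alternatives, and 115 of 120 values stayed on their side of the threshold. Median-ratio scaling left 2 of 5 carriers and 188 of 327 listed genes called lower in PAB, and 478 of 617 called in all, since the scaling itself raises PAB relative to sham. Leaving out 1 library at a time, 9 to 10 carriers passed, 4 to 5 of them higher, as did 589 to 614 listed genes, with the losses for Slc4a8 (without sham replicate 2) and Slc22a4 (without sham replicate 3). A fit with a replicate block called 10 carriers and 616 listed genes, and no carrier's call changed. The deviations of same-numbered libraries correlated at -0.0593, -0.0546 and -0.199. These values show no pairing, but with 3 libraries per group and selected genes they cannot exclude one. With a minimum mean of 10, 608 genes were called, and that filter, no filter, a pseudocount of 0.1 and eBayes without trend changed no carrier's call. The planned edgeR alternative was not run, since the listed genes hold too few low values to show that the steps of the values are single reads, and counting errors rest on that reading. Leaving out a library, an alternative chosen after seeing the data for levels per kilobase, moved 1 such level by over 1.5 times, that of Slc22a4 in PAB. Precision is limited by 3 libraries per group.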
